A study of Mus musculus with 17 samples.

Results

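Sca-1-positive skeletal stromal/stem cells (SSCs) were compared with Sca-1-negative osteoprogenitor cells (OPCs), both sorted from the bone of wild-type (WT, Cxcr4+/+) mice, over every gene that could be tested. The libraries were chosen by their titles and genotype labels: 3 WT SSC and 3 WT OPC libraries, 6 of the 17 libraries of the series. The other 11 libraries are the same 2 cell types from mice carrying 1 or 2 copies of the Cxcr4 1013 gain-of-function allele: 3 SSC and 3 OPC libraries from +/1013 mice, and 2 SSC and 3 OPC libraries from 1013/1013 mice. They entered the estimate of the spread and are set beside the WT values where stated. The labels name no treatment. Flushed and digested long bones were sorted as CD45-, TER119-, CD31- and CD51+ cells. SSCs were Sca-1+ and PDGFRα+, and OPCs were Sca-1- with or without PDGFRα. Each library came from a pool of 3 mice of 8 to 12 weeks and about 3000 sorted cells, so that the replicates are separate pools and every value is a mean over a gate. In such bulk libraries, fewer cells of a type and less RNA per cell cannot be told apart.

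SSCs are the mesenchymal cells of bone from which osteoblasts, chondrocytes and marrow adipocytes can form, and OPCs stand further along the path to the osteoblast. That path runs through the transcription factors Runx2 and Sp7 (osterix) to cells that secrete type I collagen, mineralize it with the help of alkaline phosphatase, and are in part buried as osteocytes. Sca-1, encoded by Ly6a, marks stromal cells that resemble the adventitial fibroblasts of many tissues, with Cd34, Pi16, Clec3b and Dpt among their usual genes.

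The WT OPC libraries held 65052411 to 85313745 reads counted on genes (median 77295933), and the WT SSC libraries 44499967 to 49600432 (median 48615870). The cell types also differed, without overlap, in technical measures. These are percents of the deposited reads, counted on genes or not, among which none was unaligned. Reads aligned to several places were 8.09 to 8.73% in OPC and 5.10 to 5.65% in SSC libraries. Reads outside genes were 1.44 to 1.71% in OPC and 3.68 to 4.15% in SSC libraries. Col1a1 and Col1a2 alone took 31.5 to 38.4% of the gene counts of OPC libraries and 2.24 to 2.78% of those of SSC libraries. The labels name no batch, so that an effect of library making and of cell type cannot be told apart. Replicate 3 of both cell types stood apart: 25 leukocyte marker genes took 1.98% of the counts in OPC replicate 3 and 2.05% in SSC replicate 3, against 0.0138 to 0.15% in the other 4 libraries, and list counts below are set beside those without these 2 libraries. The Spearman correlation of log2(CPM + 1) was 0.914 to 0.955 among SSC libraries, 0.895 to 0.938 among OPC libraries and 0.843 to 0.894 between them, across genes.

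Of 20238 genes tested, 1123 were higher in SSCs (5.55% of the genes) and 1185 were lower (5.86%), at an adjusted p below 0.05 and a change of at least 1.5-fold. Adjusted p-values come from the quasi-likelihood test of edgeR, with the Benjamini-Hochberg adjustment over all genes tested, and genes past both limits are called higher or lower. Levels (CPM) are counts scaled to a common library total with TMM. Values after ± are standard errors (SE) of the log2 fold change. Of the 1123, 258 differed by at least 10-fold, and of the 1185, 218. The 3 SSC values lay wholly above the 3 OPC values for 4491 genes (22.2%) and wholly below for 3184 (15.7%), and for 1118 of the genes called higher and 1173 of those called lower. Genes called higher took 24.5 to 29.4% of the counts of SSC libraries and 3.23 to 5.0% of those of OPC libraries. Genes called lower took 54.5 to 64.8% of the counts of OPC libraries and 12.1 to 13.5% of those of SSC libraries. The first principal component of the 6 libraries held 53.8% of the variance and separated the cell types, and the next held 24.6% and separated replicate 3 of both from the rest. Without replicate 3 of both cell types, 531 genes were higher and 396 lower.

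**Figure D1:**
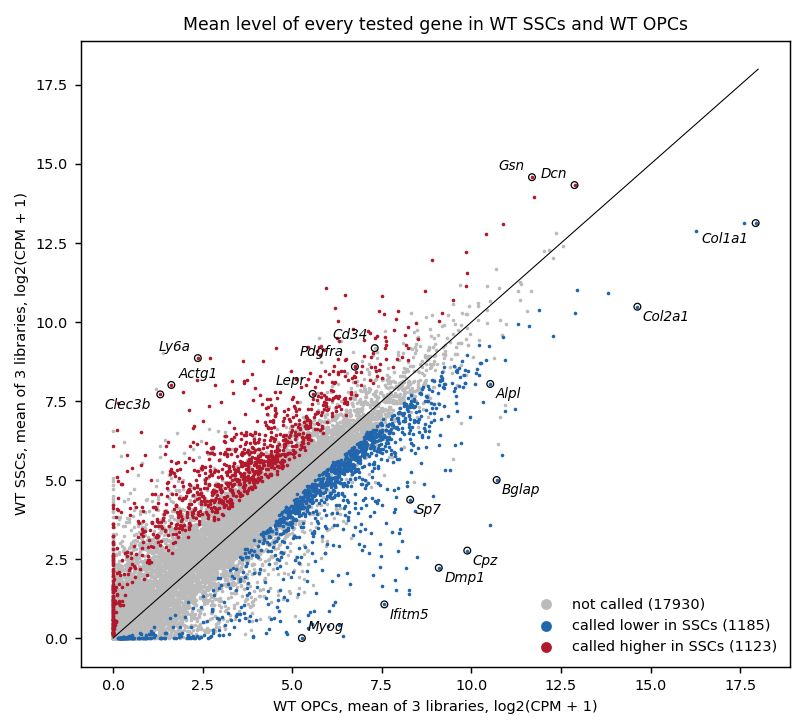
Mean level of each of the 20238 tested genes in WT OPCs (horizontal axis) and WT SSCs (vertical axis), both as log2(CPM + 1) over 3 libraries; red points are the 1123 genes called higher in SSCs, blue points the 1185 called lower, grey points the rest, and the line marks equal levels. Col1a1 lies at the far right under the line, and Ly6a, Clec3b and Actg1 lie well above it.

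The genes of the gate came out as the sort defines them, which checks the labels and is no finding. Ly6a (chr15:74994877-74998031, mm10, minus strand) read 599, 386 and 405 CPM in SSCs and 6.67, 0.569 and 5.23 CPM in OPCs, with no overlap (log2 fold change 6.80 ± 1.12, adjusted p = 0.00175). Pdgfra (chr5:75152292-75198215), whose product was required in the SSC gate and optional in the OPC gate, read 396, 414 and 339.5 CPM in SSCs and 101, 90.6 and 128 CPM in OPCs (log2 fold change 1.85 ± 0.29, adjusted p = 0.0012). Itgav, which encodes CD51 and was required in both gates, read 54, 49.5 and 59.7 CPM in SSCs and 66.8, 48.7 and 28 CPM in OPCs and did not pass the test. The genes of the excluded markers were low in most libraries. Ptprc (CD45) read 7.71, 1.26 and 119.6 CPM in SSCs and 2.5, 2.32 and 52.8 CPM in OPCs, high in replicate 3 of each cell type. Pecam1 (CD31) read 0.65, 0.614 and 8.95 CPM in SSCs and 0.448, 0.0162 and 0.272 CPM in OPCs, highest in SSC replicate 3.

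Genes of bone matrix and mineralization were mostly lower in SSCs than in OPCs. Of 36 such genes, 27 were lower in SSCs, 1 was higher and 8 passed neither way, with a median log2 fold change of -3.47 against 0.17 over all genes. Col1a1, the main chain of type I collagen (chr11:94936224-94953042, plus strand), read 195199, 261926 and 292413 CPM in OPCs and 8813, 10539 and 7535 CPM in SSCs (log2 fold change -4.80 ± 0.53, adjusted p = 9.21e-05). Col1a2, the other chain, read 169869, 201005 and 231137 CPM in OPCs and 9172, 9725 and 8264 CPM in SSCs (log2 fold change -4.47 ± 0.42, adjusted p = 2.24e-05). Per kilobase of exon, Col1a1 stood highest of all protein-coding genes in OPCs, at 38069 CPM per kb, and was still among the 15 highest in SSCs, at 1366. SSC libraries thus held type I collagen RNA in quantity.

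Osteocalcin RNA and other genes of mineralizing bone were also lower in SSCs. Bglap, the osteocalcin gene (chr3:88383501-88384464, minus strand), read 804, 1211 and 2985 CPM in OPCs and 44.9, 36.3 and 11.9 CPM in SSCs (log2 fold change -5.75 ± 0.82, adjusted p = 6.94e-04). It shares 56.6% of its 50-base transcript words with other genes, among them its near copies Bglap2 and Bglap3, so that reads of the 3 genes are only partly told apart. Ibsp, which encodes the sialoprotein of mineralizing bone (chr5:104299171-104311469), read 2653, 6058 and 6197 CPM in OPCs and 848, 985 and 418 CPM in SSCs (log2 fold change -2.73 ± 0.67, adjusted p = 0.0175). Alpl, the alkaline phosphatase that frees phosphate for mineral, read 1212, 1364 and 1841 CPM in OPCs and 166, 477 and 144 CPM in SSCs (log2 fold change -2.49 ± 0.72, adjusted p = 0.0396). The SSC means of Alpl and Ibsp lay within an order of magnitude of the OPC means, whereas that of Bglap did not. Ifitm5, an osteoblast membrane protein gene (chr7:140948958-140950291), read 109, 158 and 299 CPM in OPCs and 0.913, 1.8 and 0.57 CPM in SSCs (log2 fold change -7.43 ± 0.59, adjusted p = 4.19e-06). Phospho1, a phosphatase of matrix vesicles, read 2.72, 4.42 and 5.13 CPM in OPCs and 0.031, 0.0599 and 0.0633 CPM in SSCs (log2 fold change -6.26 ± 0.99, adjusted p = 0.00132). Cpz, a secreted carboxypeptidase, had the smallest adjusted p of the list, at 619, 870.3 and 1342 CPM in OPCs and 8.47, 5.08 and 3.89 CPM in SSCs (log2 fold change -7.34 ± 0.51, adjusted p = 1.46e-06). All 3 were below 10 CPM in every SSC library. The member higher in SSCs was Slc20a1, a phosphate transporter gene, at 137, 96.8 and 104 CPM in SSCs and 29.9, 17.7 and 16 CPM in OPCs (log2 fold change 2.41 ± 0.69, adjusted p = 0.0378). Alpl lost its call without SSC replicate 1 or 3 or OPC replicate 2 or 3 (adjusted p up to 0.137). Ibsp lost its call without SSC replicate 1 or 3 or OPC replicate 2 or 3 (adjusted p up to 0.073). Slc20a1 lost its call without SSC replicate 1, 2 or 3 or OPC replicate 2 or 3 (adjusted p up to 0.122). Slc20a1 also lost it with the replicate number as a block (adjusted p = 0.0524). Of the 36 genes, 18 to 25 were lower on leaving out 1 library and 17 without replicate 3 of both. Alpl, Ibsp and Slc20a1 did not pass without replicate 3 of both (adjusted p up to 0.242).

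**Figure D2:**
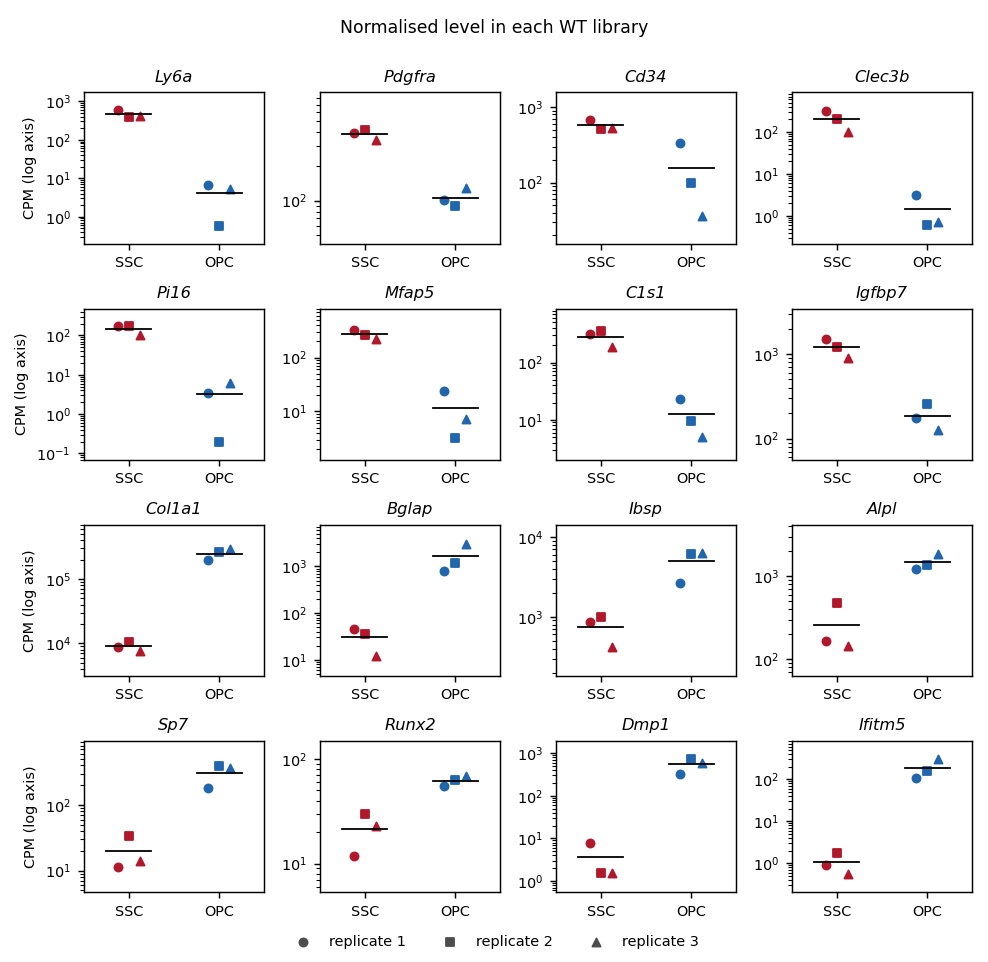
Level of 16 genes in each of the 6 WT libraries, in TMM-scaled CPM on a log axis; marker shapes give the replicate number, red is SSC, blue is OPC, and the bar is the mean of 3. Ly6a to Igfbp7 lie higher in SSCs and Col1a1 to Ifitm5 lower, with no overlap in any of the 16 panels, although Cd34 did not pass the test.

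Stretches of promoter sequence are shown for Bglap and Ibsp, lower in SSCs, Pi16, higher in SSCs, and Cd34, which read above in SSCs without passing the test, to set side by side the DNA just before their starts. They are the 100 bases before the RefSeq start (GRCm38.p6, the build of the files), 5′ to 3′ on the gene's strand, with matches to TATAAA on either strand in capitals. The RefSeq starts of Ibsp, Pi16 and Cd34 lie inside the gene spans of the GENCODE annotation given here for genes.
Bglap (chr3:88384467-88384566, minus strand): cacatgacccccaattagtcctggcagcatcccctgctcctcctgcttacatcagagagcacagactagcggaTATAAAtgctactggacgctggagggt
Ibsp (chr5:104299187-104299286, plus strand): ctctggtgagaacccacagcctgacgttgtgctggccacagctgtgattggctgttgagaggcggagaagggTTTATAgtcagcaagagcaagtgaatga
Pi16 (chr17:29318782-29318881, plus strand): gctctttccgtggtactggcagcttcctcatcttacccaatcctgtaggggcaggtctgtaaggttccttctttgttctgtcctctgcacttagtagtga
Cd34 (chr1:194938721-194938820, plus strand): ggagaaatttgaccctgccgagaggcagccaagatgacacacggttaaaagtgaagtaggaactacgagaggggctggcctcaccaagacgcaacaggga
In Bglap the match starts 27 bases and in Ibsp 28 bases before the gene start, and the Ibsp match is on the opposite strand. No match stands in the windows of Pi16 and Cd34. These 4 windows do not represent the called genes, among which TATAAA was more frequent in those higher in SSCs, as given next. Over the 10568 tested genes with a single promoter of 300 bases in the table (250 before the start and 50 after it), TATAAA was found on either strand in 8.44%, in 10.7% of 654 genes called higher in SSCs and in 6.95% of 719 called lower. The RUNX word AACCACA was found in 3.94% of all, 3.52% of the higher and 3.34% of the lower. The AP-1 word TGACTCA was found in 3.88%, 4.28% and 3.06%, and the homeodomain word TAATTA in 2.79%, 1.99% and 2.36%. The C/EBP word TTGCGCAA was found in 0.27%, 0.15% and 0%, and the SP/KLF word GGGCGG in 59.7%, 66.5% and 68.6%. All 6 words were searched on both strands, and matches of different words may overlap.

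Transcription factors of the osteoblast lineage were lower in SSCs in part. Of 18 such genes, 6 were lower in SSCs and 1 was higher (median -1.29), with 3 to 6 (moving over 1.5-fold without SSC replicate 1 or OPC replicate 2) lower on leaving out 1 library and 2 without replicate 3 of both. Runx2, which commits cells to the osteoblast lineage, read 55.2, 62.3 and 68 CPM in OPCs and 11.7, 30.02 and 22.7 CPM in SSCs (log2 fold change -1.53 ± 0.31, adjusted p = 0.00665). Sp7 (osterix), which acts after Runx2, read 181, 396 and 359 CPM in OPCs and 11.3, 34.1 and 14 CPM in SSCs (log2 fold change -3.98 ± 1.06, adjusted p = 0.0264). SSCs held both below OPCs without overlap. Creb3l1, a factor of the secretory pathway in osteoblasts, read 269, 382 and 522 CPM in OPCs and 90.3, 99.4 and 56.2 CPM in SSCs (log2 fold change -2.25 ± 0.37, adjusted p = 0.00159). Dlx5 read 46.6, 43.3 and 47.9 CPM in OPCs and 19.5, 41.2 and 11.9 CPM in SSCs and did not pass the test (adjusted p = 0.171). Zfp521, a zinc-finger protein gene known to hold back Runx2 activity, was higher in SSCs, at 115, 147 and 94 CPM in SSCs and 24.1, 22 and 16.5 CPM in OPCs (log2 fold change 2.51 ± 0.29, adjusted p = 1.29e-04). Sp7 lost its call without SSC replicate 1 or 3 or OPC replicate 2 or 3 (adjusted p up to 0.103). Runx2 and Sp7 did not pass without replicate 3 of both (adjusted p up to 0.159). Dlx5 passed without SSC replicate 2 (adjusted p = 0.0315).

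Osteocyte genes were lower in SSCs too. Of 13 tested, 8 were lower and 1 higher (median -3.08), with 4 to 7 (moving over 1.5-fold without SSC replicate 1 or 3) lower on leaving out 1 library and 4 without replicate 3 of both. Among the members with 10 or more counts in all 17 libraries, the median was 0.30. Dmp1, a matrix phosphoprotein gene of osteocytes, read 332, 717 and 582 CPM in OPCs and 7.94, 1.51 and 1.55 CPM in SSCs (log2 fold change -7.21 ± 1.28, adjusted p = 0.0028). Phex, which encodes a protease that limits phosphate wasting, read 91.3, 179 and 154 CPM in OPCs and 5.2, 7.47 and 3.8 CPM in SSCs (log2 fold change -4.69 ± 1.09, adjusted p = 0.0137). Mepe, another matrix phosphoprotein gene, read 86.5, 21.6 and 30.3 CPM in OPCs and 0.0774, 0.794 and 0.206 CPM in SSCs (log2 fold change -6.99 ± 1.81, adjusted p = 0.0233). Sost, the sclerostin gene, had no count in any SSC library and 0.842, 2.96 and 0.607 CPM in the OPC libraries, at least 95.3-fold higher in OPCs against a floor of 3 counts over the SSC group (adjusted p = 0.0491). These 4 were all detected in each OPC library, although Sost only at a few CPM. Capg, an actin-capping protein gene on the list, was higher in SSCs, at 379.7, 353 and 294 CPM in SSCs and 119.8, 74.2 and 164 CPM in OPCs (log2 fold change 1.52 ± 0.34, adjusted p = 0.0112). Phex lost its call without SSC replicate 1 or 3 (adjusted p up to 0.060). Mepe lost its call without SSC replicate 1 or 3 (adjusted p up to 0.0906). Sost lost its call without SSC replicate 1, 2 or 3 or OPC replicate 1, 2 or 3 (adjusted p up to 0.122). Sost did not pass without a filter (adjusted p = 0.0624). Sost did not pass without genes sharing over 10% of words (adjusted p = 0.0545). Mepe, Phex and Sost did not pass without replicate 3 of both (adjusted p up to 0.16).

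Genes that fold and secrete collagen were lower in SSCs in part. Of 32 genes, 16 were lower in SSCs and none was higher (median -1.31), with 13 to 16 lower on leaving out 1 library and 10 without replicate 3 of both. Serpinh1, the collagen chaperone Hsp47, read 5169.6, 7036 and 10535 CPM in OPCs and 1396, 1286 and 1066 CPM in SSCs (log2 fold change -2.60 ± 0.35, adjusted p = 4.11e-04). Fkbp10, a prolyl isomerase of the endoplasmic reticulum, read 1013, 1092 and 1187 CPM in OPCs and 296, 278 and 219 CPM in SSCs (log2 fold change -2.05 ± 0.27, adjusted p = 3.40e-04). Kdelr3, a receptor that returns chaperones to the endoplasmic reticulum, had the smallest adjusted p, at 371, 582 and 711 CPM in OPCs and 99.1, 82.8 and 75 CPM in SSCs (log2 fold change -2.70 ± 0.31, adjusted p = 1.16e-04). Each of the 3 was separated without overlap. Lox, which crosslinks collagen, read 556, 886 and 1167 CPM in OPCs and 393, 263 and 295 CPM in SSCs and did not pass (adjusted p = 0.114), nor did Sec24d, a coat protein of transport vesicles (adjusted p = 0.229). Across all collagens the direction was mixed, with 10 of 44 lower and 7 higher in SSCs. Collagens called higher numbered 5 to 7 on leaving out 1 library and 5 without replicate 3 of both, and those called lower 3 to 9 (moving over 1.5-fold without SSC replicate 2 or 3 or OPC replicate 1, 2 or 3) on leaving out 1 library and 3 without replicate 3 of both. Lox passed with DESeq2 and in a fit of the 6 WT libraries alone (adjusted p up to 0.0372).

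Cartilage genes were partly lower in SSCs. Of 24 chondrogenic genes, 8 were lower in SSCs and 1 higher (median -3.28), but the count was unstable, at 2 to 9 (moving over 1.5-fold without SSC replicate 2 or 3 or OPC replicate 1 or 2) on leaving out 1 library, 1 without replicate 3 of both and 4 with the replicate number as a block. Col2a1, the collagen of cartilage, read 25210.4, 38356 and 12490.5 CPM in OPCs and 3315, 535 and 444 CPM in SSCs (log2 fold change -4.15 ± 1.20, adjusted p = 0.0392). Acan, the large proteoglycan of cartilage, read 1174, 1412 and 407 CPM in OPCs and 242, 61.6 and 76.2 CPM in SSCs (log2 fold change -2.98 ± 0.87, adjusted p = 0.0406). SSC replicate 1 held more of both than the other SSC libraries. Matn1, a cartilage matrix protein, read 41.4, 114 and 31.6 CPM in OPCs and 0.557, 0.015 and 0.316 CPM in SSCs (log2 fold change -7.72 ± 1.48, adjusted p = 0.00724), and Mia, a protein secreted by chondrocytes, 20.6, 21.2 and 13.1 CPM in OPCs and 0.248, 0.0599 and 0.0475 CPM in SSCs (log2 fold change -7.25 ± 0.92, adjusted p = 2.85e-04). Sox9, the chondrocyte master factor, read 183, 215 and 103 CPM in OPCs and 168, 68.4 and 65.4 CPM in SSCs and did not pass, and neither did Comp, at 8338, 8134 and 5125 CPM in SSCs and 6051, 6155 and 3465 CPM in OPCs. Prg4, the joint lubricant lubricin, was the member higher in SSCs, at 5371, 5115 and 3676 CPM in SSCs and 621, 1201 and 943 CPM in OPCs (log2 fold change 2.36 ± 0.56, adjusted p = 0.0155). With the replicate block, Col2a1 (adjusted p = 0.077) and Acan (adjusted p = 0.0734) no longer passed. Col2a1 lost its call without SSC replicate 2 or 3 or OPC replicate 1, 2 or 3 (adjusted p up to 0.131). Acan lost its call without SSC replicate 2 or 3 or OPC replicate 1 or 2 (adjusted p up to 0.137). Prg4 lost its call without OPC replicate 1 or 3 (adjusted p up to 0.053). Acan, Col2a1, Matn1 and Prg4 did not pass without replicate 3 of both (adjusted p up to 0.147).

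Genes of Sca-1-positive fibroblasts were mostly higher in SSCs. Of 38 genes, 23 were higher in SSCs, none was lower and 15 passed neither way (median 2.91), with 18 to 26 higher on leaving out 1 library and 16 without replicate 3 of both. Clec3b, which encodes tetranectin (chr9:123150946-123157432), read 321, 207 and 98.1 CPM in SSCs and 3.16, 0.601 and 0.712 CPM in OPCs (log2 fold change 7.11 ± 1.25, adjusted p = 0.00259). Pi16, a peptidase inhibitor gene of adventitial fibroblasts (chr17:29317680-29330593), read 172, 169 and 100.1 CPM in SSCs and 3.49, 0.195 and 6.32 CPM in OPCs (log2 fold change 5.46 ± 1.35, adjusted p = 0.0183). Mfap5, a protein of elastic microfibrils, read 322, 263 and 224 CPM in SSCs and 24.1, 3.2 and 7.12 CPM in OPCs (log2 fold change 4.55 ± 0.89, adjusted p = 0.00494). In all 3, every OPC value was below 30 CPM and every SSC value above it. Col14a1, a collagen that binds to fibril surfaces, had the smallest adjusted p, at 208, 268 and 182 CPM in SSCs and 2.85, 2.0 and 3.83 CPM in OPCs (log2 fold change 6.24 ± 0.44, adjusted p = 1.71e-06). Dpt, which encodes dermatopontin, read 209, 174 and 145 CPM in SSCs and 61.3, 26.9 and 13.9 CPM in OPCs (log2 fold change 2.37 ± 0.70, adjusted p = 0.0428). Dcn, the proteoglycan decorin, was abundant in both and higher in SSCs, at 26239, 19326 and 16313 CPM in SSCs and 6724, 5309 and 10519 CPM in OPCs (log2 fold change 1.46 ± 0.30, adjusted p = 0.00645). Cd34 (chr1:194938819-194961279) read 676, 521 and 535 CPM in SSCs and 336, 97.7 and 36.1 CPM in OPCs and did not pass (adjusted p = 0.13), although it did with the replicate number as a block (adjusted p = 0.0102). Its OPC values ranged over nearly an order of magnitude, with OPC replicate 1 the highest. Per kilobase of exon, Gsn and Dcn stood first and next among protein-coding genes in SSCs, at 7774 and 3533 CPM per kb, against 1046 and 1288 in OPCs (Gsn was named for this rank after its value was seen). Pi16 lost its call without OPC replicate 1 (adjusted p up to 0.0525). Dpt lost its call without SSC replicate 1, 2 or 3 or OPC replicate 2 or 3 (adjusted p up to 0.139). Dcn did not pass in a fit of the 6 WT libraries alone (adjusted p = 0.0653). Dpt and Pi16 did not pass without replicate 3 of both (adjusted p up to 0.182). Cd34 passed with DESeq2 and without OPC replicate 1 (adjusted p up to 0.0398).

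**Figure D3:**
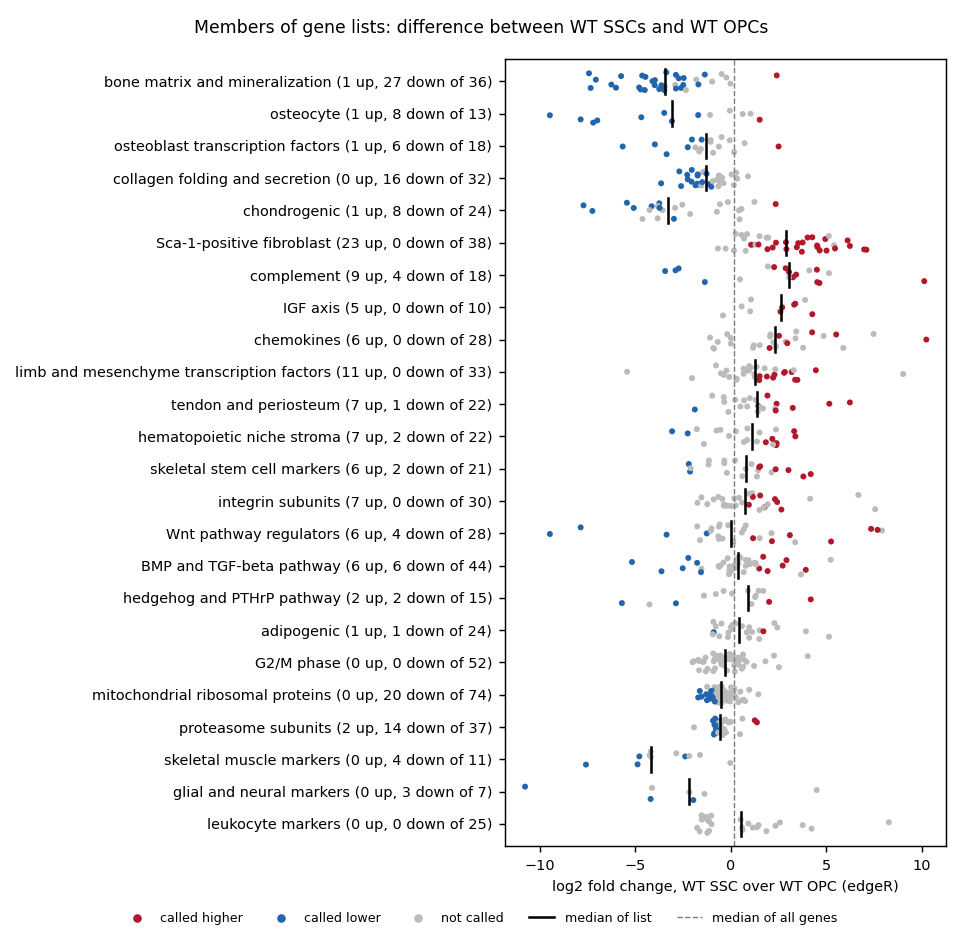
Members of 24 gene lists, each point a tested gene at its log2 fold change of WT SSC over WT OPC (horizontal axis, edgeR), with red for genes called higher, blue for genes called lower and grey for the rest; the black bar is the list's median and the dashed line the median of all genes, 0.17. Bone matrix, osteocyte and chondrogenic lists have medians below -3, and the Sca-1-positive fibroblast, complement and IGF lists have medians above 2.

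Complement genes went both ways, and genes of the insulin-like growth factor (IGF) axis were higher in part. Of 18 complement genes, 9 were higher and 4 lower (median 3.05), with 6 to 9 higher and 2 to 4 (moving over 1.5-fold without SSC replicate 2) lower on leaving out 1 library and 5 and 3 without replicate 3 of both. C1s1, a protease of the classical pathway, read 314, 353 and 188 CPM in SSCs and 22.8, 9.5 and 5.0 CPM in OPCs (log2 fold change 4.51 ± 0.63, adjusted p = 5.59e-04), and C4b, its substrate, 681, 546 and 414 CPM in SSCs and 105, 31.3 and 15.6 CPM in OPCs (log2 fold change 3.43 ± 0.90, adjusted p = 0.0244). Both share over 10% of their 50-base words with near copies (21.8% for C1s1 and 34.6% for C4b). C3, the central component, read 657, 833 and 519 CPM in SSCs and 7.28, 2.0 and 233 CPM in OPCs and did not pass, with OPC replicate 3 far above the other OPC libraries. C1qtnf6, of the C1q and TNF-related family, went the other way, at 102, 118 and 174 CPM in OPCs and 20.3, 16.5 and 16.2 CPM in SSCs (log2 fold change -2.90 ± 0.23, adjusted p = 4.48e-06). In the IGF axis, 5 of 10 genes were higher and none lower (median 2.65), with 5 to 6 on leaving out 1 library and 5 without replicate 3 of both. The 5 were Igf1, Igfbp3, Igfbp5, Igfbp6 and Igfbp7, which encode the growth factor and 4 of its binding proteins. Igfbp7 had the smallest adjusted p, at 1519, 1211 and 897 CPM in SSCs and 176, 257 and 128 CPM in OPCs (log2 fold change 2.70 ± 0.35, adjusted p = 3.34e-04). C4b lost its call without SSC replicate 1 or 2 or OPC replicate 2 or 3 (adjusted p up to 0.0971). C4b did not pass without replicate 3 of both (adjusted p = 0.119). C3 passed without OPC replicate 3 and without replicate 3 of both (adjusted p up to 0.0457).

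Chemokines and cytokines acting on blood cells were higher in SSCs in part. Of 28 chemokine genes, 6 were higher and none lower (median 2.30, or 2.16 with the 5 genes at 0 in a group set to their floor), but only 1 to 4 (moving over 1.5-fold without SSC replicate 1, 2 or 3 or OPC replicate 2 or 3) on leaving out 1 library and 1 without replicate 3 of both. Cxcl14 read 142, 129 and 73.4 CPM in SSCs and 36.4, 11.1 and 12 CPM in OPCs (log2 fold change 2.53 ± 0.49, adjusted p = 0.00478). Cxcl12, the ligand of Cxcr4 and a retention factor for blood stem cells, read 545, 692 and 350.2 CPM in SSCs and 154, 48.9 and 104 CPM in OPCs, without overlap, and did not pass (adjusted p = 0.0613). Cxcr4 itself read 1.3, 0.719 and 47.3 CPM in SSCs and 15.3, 9.65 and 6.32 CPM in OPCs, highest in the SSC library with abundant leukocyte transcripts, and its direction turned without that library (log2 fold change -3.36). Ackr3, the other receptor of Cxcl12, was higher in SSCs, at 447, 326 and 306 CPM in SSCs and 247, 162 and 106 CPM in OPCs (log2 fold change 1.07 ± 0.33, adjusted p = 0.0497). Of 22 genes of the stroma that supports blood stem cells, 7 were higher and 2 lower (median 1.12). Niche genes called higher numbered 6 to 7 on leaving out 1 library and 4 without replicate 3 of both, and those called lower 2 on leaving out 1 library and 2 without replicate 3 of both. Lepr, the leptin receptor that marks perivascular stroma, read 255, 234 and 143 CPM in SSCs and 67.3, 33.2 and 39 CPM in OPCs (log2 fold change 2.18 ± 0.33, adjusted p = 0.00109). Kitl, the stem cell factor gene, read 13.5, 9.63 and 7.42 CPM in SSCs and 9.15, 7.02 and 9.17 CPM in OPCs and did not pass, and neither did Foxc1 (adjusted p = 0.185). Tmem176a was lower in SSCs, at 303, 297 and 555 CPM in OPCs and 41.1, 54.7 and 41.4 CPM in SSCs (log2 fold change -3.07 ± 0.28, adjusted p = 1.65e-05). Of 10 regulators of osteoclasts, Csf1, the macrophage growth factor, and Il34, which signals through the same receptor, were higher. Osteoclast regulators called higher numbered 2 to 3 on leaving out 1 library and 1 without replicate 3 of both. Csf1 read 208, 219 and 167 CPM in SSCs and 86.5, 33.5 and 45.7 CPM in OPCs (log2 fold change 1.84 ± 0.38, adjusted p = 0.00633). Tnfsf11 (RANKL) read 3.65, 4.4 and 5.87 CPM in SSCs and 4.59, 2.44 and 3.56 CPM in OPCs, its decoy receptor Tnfrsf11b (osteoprotegerin) 329.9, 138 and 158 CPM in SSCs and 337, 169.9 and 139 CPM in OPCs, and Ccl2 30.2, 12.7 and 36.6 CPM in SSCs and 3.8, 0.601 and 6.43 CPM in OPCs, and none of the 3 passed. Ackr3 lost its call without SSC replicate 1, 2 or 3 or OPC replicate 2 or 3 (adjusted p up to 0.165). Ackr3 did not pass without a filter (adjusted p = 0.0669). Ackr3 did not pass in a fit of the 6 WT libraries alone (adjusted p = 0.0839). Ackr3 did not pass with upper-quartile scaling (adjusted p = 0.0557). Ackr3 and Csf1 did not pass without replicate 3 of both (adjusted p up to 0.184). Cxcl12 passed with DESeq2, with a filter of 10 counts in each library, in a fit of the 6 WT libraries alone and with the bias-adjusted test (adjusted p up to 0.0421). Ccl2 passed with DESeq2 (adjusted p = 0.0272).

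Markers proposed for skeletal stem cells went both ways. Of 21, 6 were higher in SSCs and 2 lower (median 0.79), with 3 to 5 (moving over 1.5-fold without SSC replicate 2 or OPC replicate 2) higher and 1 to 2 (moving over 1.5-fold without SSC replicate 1 or 3 or OPC replicate 1 or 2) lower on leaving out 1 library and 4 and 1 without replicate 3 of both. Prrx1, a homeobox gene of limb mesenchyme, read 90.6, 83.5 and 68.5 CPM in SSCs and 20.9, 36.8 and 28.6 CPM in OPCs (log2 fold change 1.49 ± 0.25, adjusted p = 0.00194). Cd200, a surface glycoprotein used in stem cell gates, was lower, at 387, 501 and 474 CPM in OPCs and 86, 162 and 63.1 CPM in SSCs (log2 fold change -2.13 ± 0.35, adjusted p = 0.00169). Gli1 read 10.2, 14.9 and 6.88 CPM in SSCs and 7.33, 3.49 and 4.23 CPM in OPCs and Grem1 4.26, 3.5 and 2.86 CPM in SSCs and 1.92, 1.17 and 3.08 CPM in OPCs, and neither passed. Among transcription factors of limb and mesenchyme, 11 of 33 were higher and none lower (median 1.26), with 8 to 10 on leaving out 1 library and 7 without replicate 3 of both. Msx1, a homeobox gene of limb buds and skull, read 78.7, 59.99 and 33.7 CPM in SSCs and 8.18, 5.07 and 3.37 CPM in OPCs (log2 fold change 3.37 ± 0.39, adjusted p = 1.17e-04). Osr2 read 94.5, 84 and 75.7 CPM in SSCs and 23.9, 10.1 and 2.55 CPM in OPCs (log2 fold change 2.79 ± 0.62, adjusted p = 0.0101), and Tbx15 89.96, 74.8 and 90.1 CPM in SSCs and 40.7, 25.6 and 22.8 CPM in OPCs (log2 fold change 1.51 ± 0.35, adjusted p = 0.0135). Of 32 Hox genes tested, 5 were higher (Hoxa9, Hoxa11, Hoxd9, Hoxd10 and Hoxd11) and 1 lower. Hoxd10, at 2.43, 1.89 and 1.25 CPM in SSC libraries, had no count in any OPC library, at least 113-fold higher against a floor of 3 counts over the OPC group (adjusted p = 0.00369). Hoxb2 was lower, at 4.28, 7.57 and 11.2 CPM in OPCs and 0.356, 0.494 and 0.111 CPM in SSCs (log2 fold change -4.58 ± 0.87, adjusted p = 0.00409). All 5 higher Hox genes belong to the posterior groups 9 to 11 of their clusters, and the lower gene to group 2. Hox genes called higher numbered 3 to 5 (moving over 1.5-fold without SSC replicate 1 or OPC replicate 3) on leaving out 1 library and 3 without replicate 3 of both, and those called lower 1 on leaving out 1 library and 1 without replicate 3 of both. Tbx15 lost its call without OPC replicate 2 or 3 (adjusted p up to 0.0567). Osr2 did not pass in a fit of the 6 WT libraries alone (adjusted p = 0.0502). Tbx15 did not pass without replicate 3 of both (adjusted p = 0.126).

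Tendon and periosteum genes were higher in SSCs in part. Of 22, 7 were higher and 1 lower (median 1.36), with 3 to 9 (moving over 1.5-fold without OPC replicate 2 or 3) on leaving out 1 library and 2 without replicate 3 of both. Aspn, a small proteoglycan of periosteum, read 579.9, 460.1 and 402 CPM in SSCs and 133.6, 99.9 and 147 CPM in OPCs (log2 fold change 1.92 ± 0.45, adjusted p = 0.0141). Scx, the tendon transcription factor, read 40.7, 43.3 and 22.3 CPM in SSCs and 24.6, 24.7 and 16.2 CPM in OPCs, Tnmd, a membrane protein of tendon cells, 110.0, 114 and 67 CPM in SSCs and 193, 116 and 65.4 CPM in OPCs, and Fmod, a proteoglycan of tendon, 4818, 6384 and 3525 CPM in SSCs and 4847, 5209 and 2454 CPM in OPCs, and none of the 3 passed. Ptgis, prostacyclin synthase, was lower, at 532, 498 and 765 CPM in OPCs and 197, 167 and 122 CPM in SSCs (log2 fold change -1.88 ± 0.42, adjusted p = 0.0105). Among matrix and adhesion families, 7 of 30 integrin subunits and 2 of 11 laminin subunits were higher and none was lower. Of S100 proteins 5 of 13, and of tissue inhibitors of metalloproteinases 2 of 4, were higher and none was lower. The family counts of this paragraph stand beside 5.55% higher and 5.86% lower over all genes tested. Itga5, the fibronectin receptor subunit, read 188, 186 and 185 CPM in SSCs and 64.5, 69.99 and 57.6 CPM in OPCs (log2 fold change 1.54 ± 0.29, adjusted p = 0.00367). Lama4 read 127, 123 and 99.98 CPM in SSCs and 31.2, 29.8 and 28.6 CPM in OPCs (log2 fold change 1.97 ± 0.36, adjusted p = 0.00318), Timp2 2964, 3314 and 2626 CPM in SSCs and 1404, 752 and 664 CPM in OPCs (log2 fold change 1.66 ± 0.30, adjusted p = 0.00331) and S100a10 358, 258 and 203 CPM in SSCs and 105, 125 and 91.7 CPM in OPCs (log2 fold change 1.35 ± 0.24, adjusted p = 0.00266). In each of these 4 genes the SSC values lay wholly above the OPC values. Of 17 small leucine-rich proteoglycans, 3 were higher, Ecm2 with the smallest adjusted p (log2 fold change 1.91 ± 0.37, adjusted p = 0.00472), and Bgn, biglycan, was lower, at 2945, 3816 and 4587 CPM in OPCs and 1324, 1545 and 1105 CPM in SSCs (log2 fold change -1.51 ± 0.28, adjusted p = 0.00373). Integrins called higher numbered 4 to 7 (moving over 1.5-fold without SSC replicate 2 or OPC replicate 2 or 3) on leaving out 1 library and 2 without replicate 3 of both. Laminins called higher numbered 2 to 3 on leaving out 1 library and 1 without replicate 3 of both. S100 genes called higher numbered 3 to 5 (moving over 1.5-fold without SSC replicate 1 or 2 or OPC replicate 1 or 2) on leaving out 1 library and 5 without replicate 3 of both. Without SSC replicate 1 and without OPC replicate 1, 1 S100 gene was lower. Tissue inhibitors called higher numbered 2 on leaving out 1 library and 2 without replicate 3 of both. Small proteoglycans called higher numbered 2 to 4 on leaving out 1 library and 2 without replicate 3 of both, and those called lower 1 to 2 (moving over 1.5-fold without OPC replicate 3) on leaving out 1 library and 0 without replicate 3 of both. Of 17 matrix metalloproteinases, 2 were higher and 2 lower: Mmp3, stromelysin, read 111, 235 and 184 CPM in SSCs and 3.88, 9.37 and 8.1 CPM in OPCs (log2 fold change 4.64 ± 0.74, adjusted p = 0.00145), and Mmp16 87, 108 and 165 CPM in OPCs and 12.8, 20.2 and 16.1 CPM in SSCs (log2 fold change -2.87 ± 0.40, adjusted p = 5.23e-04). Matrix metalloproteinases called higher numbered 1 to 2 (moving over 1.5-fold without SSC replicate 2) on leaving out 1 library and 1 without replicate 3 of both, and those called lower 2 on leaving out 1 library and 1 without replicate 3 of both. Of 18 ADAMTS proteases, 2 were higher and 2 lower, and none of these calls held in every fit that left out 1 library, which gave 0 to 3 (moving over 1.5-fold without SSC replicate 1, 2 or 3 or OPC replicate 2 or 3) higher and 0 to 1 (moving over 1.5-fold without any 1 library) lower, with 1 higher and 0 lower without replicate 3 of both. Adamts10 read 86.3, 137 and 75.5 CPM in SSCs and 42.4, 29.4 and 50.1 CPM in OPCs (log2 fold change 1.29 ± 0.33, adjusted p = 0.0206) and Adamts14 28.6, 64.5 and 49.4 CPM in OPCs and 10.8, 9.84 and 7.47 CPM in SSCs (log2 fold change -2.34 ± 0.58, adjusted p = 0.0178). Aspn lost its call without OPC replicate 2 (adjusted p up to 0.0656). Adamts10 lost its call without SSC replicate 2 or OPC replicate 2 (adjusted p up to 0.0961). Adamts14 lost its call without SSC replicate 1, 2 or 3 or OPC replicate 2 (adjusted p up to 0.0716). Adamts14, Aspn, Bgn and Ptgis did not pass without replicate 3 of both (adjusted p up to 0.132).

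Regulators of Wnt signalling went both ways, beside 5.55% higher and 5.86% lower over all genes tested. Of 28 regulators of the pathway, 6 were higher in SSCs and 4 lower (median 0.00), with 3 to 5 (moving over 1.5-fold without SSC replicate 2) higher and 1 to 3 (moving over 1.5-fold without SSC replicate 1, 2 or 3 or OPC replicate 2 or 3) lower on leaving out 1 library and 5 and 1 without replicate 3 of both. The Dickkopf genes, which encode a family of secreted proteins, went opposite ways. Dkk1, a Wnt inhibitor, read 43.5, 85 and 105 CPM in OPCs and 0.495, 0.464 and 0.0316 CPM in SSCs (log2 fold change -7.87 ± 1.32, adjusted p = 0.00243). Dkk2 read 37.9, 23.5 and 23.3 CPM in SSCs and 0.475, 0 and 0 CPM in OPCs (log2 fold change 7.36 ± 1.15, adjusted p = 0.00196) and Dkk3 355, 375 and 289.5 CPM in SSCs and 85.6, 70.5 and 72.2 CPM in OPCs (log2 fold change 2.16 ± 0.42, adjusted p = 0.00453). Thus Dkk1 RNA was close to absent from SSCs and Dkk2 RNA close to absent from OPCs. Among the secreted frizzled-related proteins, which bind Wnt ligands, Sfrp2 and Sfrp4 were higher, and Sfrp1, Sfrp5 and Frzb did not pass. Sfrp4 read 735, 1076 and 813 CPM in SSCs and 169.9, 58.5 and 77.9 CPM in OPCs (log2 fold change 3.10 ± 0.37, adjusted p = 1.65e-04) and Sfrp2 54.3, 111 and 54.3 CPM in SSCs and 0.964, 4.74 and 0 CPM in OPCs (log2 fold change 5.26 ± 1.30, adjusted p = 0.0182). Rspo2, which encodes a potentiator of Wnt signalling, read 16.3, 27.9 and 18.1 CPM in SSCs and 0, 0.292 and 0 CPM in OPCs (log2 fold change 7.70 ± 2.12, adjusted p = 0.0374), and its relative Rspo3 3.1, 1.41 and 1.42 CPM in SSCs and 7.38, 7.77 and 4.94 CPM in OPCs, without passing. Wif1, another inhibitor, read 509.7, 846 and 984 CPM in OPCs and 372, 229.5 and 164 CPM in SSCs and did not pass. Among 14 Wnt ligands, Wnt2 and Wnt9a were higher and Wnt4 and Wnt5b lower. Wnt2 had no count in any OPC library and 7.63, 2.59 and 4.86 CPM in the SSC libraries, at least 307-fold higher against 3 counts over the OPC group (adjusted p = 4.62e-04). Wnt5b read 79.2, 111 and 129.9 CPM in OPCs and 15.5, 27.1 and 12.8 CPM in SSCs (log2 fold change -2.53 ± 0.44, adjusted p = 0.00238). Of 9 frizzled receptors, 2 were higher, among them Fzd1, at 51.4, 96.1 and 53.2 CPM in SSCs and 34.9, 14.7 and 12.2 CPM in OPCs (log2 fold change 1.70 ± 0.44, adjusted p = 0.0221). Wnt ligands called higher numbered 2 to 3 on leaving out 1 library and 2 without replicate 3 of both, and those called lower 1 to 2 (moving over 1.5-fold without SSC replicate 2) on leaving out 1 library and 1 without replicate 3 of both. Frizzled receptors called higher numbered 0 to 2 (moving over 1.5-fold without SSC replicate 1, 2 or 3 or OPC replicate 2 or 3) on leaving out 1 library and 0 without replicate 3 of both (1 with the replicate block). With the replicate block Rspo2 no longer passed (adjusted p = 0.0535). Sfrp2 lost its call without SSC replicate 2 or OPC replicate 1 (adjusted p up to 0.0577). Rspo2 lost its call without SSC replicate 1, 2 or 3 or OPC replicate 1 or 3 (adjusted p up to 0.102). Fzd1 lost its call without SSC replicate 2 or OPC replicate 2 or 3 (adjusted p up to 0.0947). Fzd1 and Sfrp2 did not pass in a fit of the 6 WT libraries alone (adjusted p up to 0.0644). Fzd1 and Rspo2 did not pass without replicate 3 of both (adjusted p up to 0.154). Wif1 passed in a fit of the 6 WT libraries alone (adjusted p = 0.0417).

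The BMP and TGF-beta pathway was balanced, with 6 of 44 genes higher and 6 lower (median 0.36). The counts of this paragraph stand beside 5.55% higher and 5.86% lower over all genes tested. BMP and TGF-beta genes called higher numbered 4 to 9 on leaving out 1 library and 4 without replicate 3 of both, and those called lower 5 to 6 on leaving out 1 library and 4 without replicate 3 of both. Bmp3, which opposes bone formation, was lower, at 231, 223 and 350.0 CPM in OPCs and 8.17, 10.04 and 4.02 CPM in SSCs (log2 fold change -5.18 ± 0.61, adjusted p = 1.56e-04). Chrd, the BMP antagonist chordin, was higher, at 43, 45.7 and 29.7 CPM in SSCs and 10.7, 13.7 and 12 CPM in OPCs (log2 fold change 1.70 ± 0.24, adjusted p = 5.97e-04). Ligands Bmp4 (80.6, 68.5 and 62.3 CPM in SSCs and 80.5, 63.2 and 42.7 CPM in OPCs) and Gdf10 (adjusted p = 0.629) and the receptor Tgfbr2 (adjusted p = 0.682) did not pass. In the hedgehog and PTHrP pathway, 2 of 15 genes were higher and 2 lower, and the PTHrP signal and its receptor stood on opposite sides. Hedgehog and PTHrP genes called higher numbered 2 to 3 on leaving out 1 library and 2 without replicate 3 of both, and those called lower 1 to 2 (moving over 1.5-fold without SSC replicate 1, 2 or 3 or OPC replicate 1 or 3) on leaving out 1 library and 1 without replicate 3 of both (1 with the replicate block). Pthlh, the PTHrP gene (chosen after its values were seen), read 64, 39.5 and 35.6 CPM in SSCs and 1.81, 5.3 and 0.482 CPM in OPCs (log2 fold change 4.19 ± 0.78, adjusted p = 0.00378), and Pth1r, the receptor of PTH and PTHrP, 1267, 1151 and 1437 CPM in OPCs and 159, 276 and 90.9 CPM in SSCs (log2 fold change -2.87 ± 0.48, adjusted p = 0.00177). Boc, a co-receptor of hedgehog proteins, was higher, at 262, 343 and 213 CPM in SSCs and 91.7, 60.8 and 50.3 CPM in OPCs (log2 fold change 2.01 ± 0.37, adjusted p = 0.00358). Gas1 read 932, 1062 and 595 CPM in SSCs and 631, 295 and 140.4 CPM in OPCs and Ptch1, a hedgehog receptor and target, 82.1, 30.5 and 21.1 CPM in OPCs and 16.2, 23.9 and 10.4 CPM in SSCs, and neither passed. Of 22 FGF ligands and receptors, Fgf2, Fgf10 and Fgf18 were higher and Fgfr4 lower. Fgf18 read 17.8, 22.9 and 14.6 CPM in SSCs and 1.24, 2.32 and 0.586 CPM in OPCs (log2 fold change 3.73 ± 0.53, adjusted p = 6.35e-04) and Fgfr4 494, 179 and 29.7 CPM in OPCs and 2.52, 5.14 and 0 CPM in SSCs (log2 fold change -6.52 ± 1.72, adjusted p = 0.0258). Fgfr4 lost its call without SSC replicate 1 or 2 or OPC replicate 1 (adjusted p up to 0.0942). Fgfr4 did not pass in a fit of the 6 WT libraries alone (adjusted p = 0.0627). Ptch1 passed with DESeq2 (adjusted p = 0.0477).

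Guidance and Notch genes held calls in both directions. Of 29 semaphorins and plexins, 3 were higher and 4 lower, beside 5.55% and 5.86% of all genes tested. Sema3c, a secreted guidance protein, read 221, 135 and 199 CPM in SSCs and 19.5, 16.3 and 6.03 CPM in OPCs (log2 fold change 3.73 ± 0.43, adjusted p = 1.29e-04), and Sema3b 211, 106 and 168 CPM in OPCs and 57.5, 62.8 and 41.6 CPM in SSCs (log2 fold change -1.58 ± 0.32, adjusted p = 0.00641). Semaphorins and plexins called higher numbered 3 on leaving out 1 library and 2 without replicate 3 of both, and those called lower 1 to 3 (moving over 1.5-fold without SSC replicate 1, 2 or 3 or OPC replicate 1 or 3) on leaving out 1 library and 1 without replicate 3 of both. Of 20 ephrins and Eph receptors, only Efnb1 was lower, at 72.8, 60.1 and 77.8 CPM in OPCs and 17.4, 32.3 and 13.3 CPM in SSCs (log2 fold change -1.74 ± 0.36, adjusted p = 0.00638). Of 14 Notch genes, the target Hes1 was higher, at 70.3, 51.1 and 138 CPM in SSCs and 40.5, 36.3 and 28.9 CPM in OPCs (log2 fold change 1.30 ± 0.35, adjusted p = 0.0294), and Heyl lower, at 202, 111 and 26.5 CPM in OPCs and 9.6, 31.2 and 2.45 CPM in SSCs (log2 fold change -2.97 ± 0.89, adjusted p = 0.0465). SSC replicate 3 had the highest Hes1 value and OPC replicate 3 the lowest Heyl value among OPCs. Of 268 solute carrier genes, 8 were higher and 30 lower, Slc1a5 (log2 fold change 2.47 ± 0.33, adjusted p = 4.00e-04) and Slc25a10 (log2 fold change -2.82 ± 0.29, adjusted p = 3.98e-05) with the smallest adjusted p. Solute carriers called higher numbered 4 to 9 (moving over 1.5-fold without SSC replicate 1 or 2 or OPC replicate 2 or 3) on leaving out 1 library and 3 without replicate 3 of both, and those called lower 14 to 25 (moving over 1.5-fold without SSC replicate 2 or 3 or OPC replicate 2) on leaving out 1 library and 7 without replicate 3 of both. Of 20 aldehyde dehydrogenases, Aldh1a3, which makes retinoic acid, was higher, at 64.6, 64 and 42.2 CPM in SSCs and 5.72, 3.43 and 8.1 CPM in OPCs (log2 fold change 3.31 ± 0.41, adjusted p = 2.22e-04), and 4 were lower, Aldh1l2 at 40.4, 72.9 and 64.4 CPM in OPCs and 5.6, 5.3 and 5.41 CPM in SSCs (log2 fold change -3.45 ± 0.34, adjusted p = 3.54e-05). Aldehyde dehydrogenases called higher numbered 1 to 2 (moving over 1.5-fold without OPC replicate 1) on leaving out 1 library and 1 without replicate 3 of both, and those called lower 1 to 3 (moving over 1.5-fold without SSC replicate 1 or OPC replicate 2) on leaving out 1 library and 2 without replicate 3 of both. Of 10 annexins, Anxa8 was higher (log2 fold change 1.67 ± 0.47, adjusted p = 0.0335) and Anxa6 lower (log2 fold change -1.10 ± 0.27, adjusted p = 0.0174). Of 6 Serpina3 genes tested, 3 were higher. Serpina3 genes called higher numbered 2 on leaving out 1 library and 2 without replicate 3 of both. Serpina3c, at 12.6, 8.28 and 4.46 CPM in the SSC libraries, had no count in any OPC library, at least 516-fold higher against 3 counts over the OPC group (adjusted p = 5.72e-06). With the replicate block Hes1 did not pass (adjusted p = 0.0533). Hes1 lost its call without SSC replicate 3 or OPC replicate 2 or 3 (adjusted p up to 0.143). Heyl lost its call without SSC replicate 1 or 3 or OPC replicate 1 or 2 (adjusted p up to 0.148). Anxa8 lost its call without SSC replicate 1, 2 or 3 or OPC replicate 1, 2 or 3 (adjusted p up to 0.127). Anxa6 lost its call without SSC replicate 1 or 3 or OPC replicate 1 (adjusted p up to 0.0692). Heyl did not pass without a filter (adjusted p = 0.0525). Anxa6, Hes1 and Heyl did not pass in a fit of the 6 WT libraries alone (adjusted p up to 0.113). Anxa8, Efnb1, Hes1, Heyl and Sema3b did not pass without replicate 3 of both (adjusted p up to 0.316).

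The 10 protein-coding genes with the largest rise, among those averaging at least 10 CPM with no overlap, were C7, Cyp2f2, Adam33, Rspo2, Pla1a, Dkk2, Clec3b, Ifi205, Procr and Actg1. C7, a late complement component, read 266, 5.68 and 14.3 CPM in SSCs and 0, 0.244 and 0 CPM in OPCs (log2 fold change 10.14 ± 2.14, adjusted p = 0.0101), and its SSC mean rested on replicate 1. Cyp2f2, a cytochrome P450 gene, read 40.2, 40.5 and 19 CPM in SSCs and 0, 0.227 and 0 CPM in OPCs (log2 fold change 8.72 ± 1.14, adjusted p = 0.00133), and Procr, the endothelial protein C receptor gene, 114, 47.8 and 110.2 CPM in SSCs and 0.34, 0.991 and 0.817 CPM in OPCs (log2 fold change 6.99 ± 0.80, adjusted p = 1.19e-04). Adam33, a membrane protease gene of mesenchyme, read 34.3, 35.4 and 21.2 CPM in SSCs and 0.0136, 0 and 0.314 CPM in OPCs (log2 fold change 8.18 ± 2.00, adjusted p = 0.0172), and Pla1a, a phospholipase gene, 29.8, 80.3 and 54 CPM in SSCs and 0.231, 0.617 and 0.0838 CPM in OPCs (log2 fold change 7.43 ± 1.38, adjusted p = 0.00359). Each of these 5 was below 1 CPM in every OPC library. Ifi205 read 44.2, 23.5 and 17 CPM in SSCs and 0.448, 0.146 and 0 CPM in OPCs (log2 fold change 7.06 ± 0.96, adjusted p = 4.88e-04), and shares 18.6% of its 50-base words with other genes. The 10 largest falls included Myog, Ranbp3l, Dkk1, Matn1, Myf5, Entpd3, Ifitm5, Lipc and Pgbd5. Entpd3, an ectonucleotidase gene, read 233, 283 and 398 CPM in OPCs and 3.0, 0.659 and 1.23 CPM in SSCs (log2 fold change -7.54 ± 1.25, adjusted p = 0.00183), Lipc, the hepatic lipase gene, 227, 264 and 432 CPM in OPCs and 3.14, 2.19 and 0.206 CPM in SSCs (log2 fold change -7.38 ± 1.17, adjusted p = 0.00132) and Ranbp3l 18, 24 and 41.9 CPM in OPCs and 0.155, 0.12 and 0 CPM in SSCs (log2 fold change -8.22 ± 1.01, adjusted p = 6.49e-04). All OPC libraries held these 3 well above the SSC libraries. Pgbd5 read 26.2, 52.6 and 47.3 CPM in OPCs and 0.0929, 0.434 and 0.237 CPM in SSCs (log2 fold change -7.35 ± 1.35, adjusted p = 0.0034). Adam33 lost its call without OPC replicate 1 or 2 (adjusted p up to 0.065). C7 did not pass without replicate 3 of both (adjusted p = 0.0508).

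Some markers of skeletal muscle and of Schwann cells were lower in SSCs. Myog, a factor of differentiating muscle cells, had no count in any SSC library and 26.6, 77.6 and 8.44 CPM in the OPC libraries, at least 2436-fold higher in OPCs against 3 counts over the SSC group (adjusted p = 0.00358). Myf5 and Pax7, factors of muscle satellite cells, read 51.9, 26.9 and 3.64 CPM and 27.9, 12.5 and 4.19 CPM in OPCs and at most 0.884 CPM in SSCs. Of 11 muscle markers, 4 were lower in SSCs and none higher, and their summed level was 293 to 481 CPM in OPC and 4.56 to 37.3 CPM in SSC libraries. Muscle markers called lower numbered 1 to 3 (moving over 1.5-fold without SSC replicate 1 or 3 or OPC replicate 1, 2 or 3) on leaving out 1 library and 1 without replicate 3 of both. Acta1, skeletal muscle actin, read 148, 355 and 252 CPM in OPCs and 3.25, 22.7 and 1.34 CPM in SSCs (log2 fold change -4.79 ± 1.43, adjusted p = 0.0452), without passing under the replicate block (adjusted p = 0.0526). Sox10, a Schwann cell factor, read 14.5, 7.8 and 4.12 CPM in OPCs and 0.433, 0.854 and 0.142 CPM in SSCs (log2 fold change -4.20 ± 0.88, adjusted p = 0.0113). Of 8 glial and neural markers, 7 were tested, 3 were lower and none was higher, with a summed level of all 8 at 241 to 741 CPM in OPC and 71.8 to 88.0 CPM in SSC libraries. Glial markers called lower numbered 1 to 4 (moving over 1.5-fold without SSC replicate 1) on leaving out 1 library and 2 without replicate 3 of both. The 12 mural markers summed to 265.6 to 1239 CPM in OPC and 209 to 694 CPM in SSC libraries. Des, a filament of muscle and mural cells, was lower in SSCs, at 433, 184 and 61.3 CPM in OPCs and 12.6, 29.99 and 1.98 CPM in SSCs (log2 fold change -3.93 ± 0.97, adjusted p = 0.0182), and Rgs5, a pericyte gene, read 70.7, 133 and 19.2 CPM in SSCs and 4.24, 4.79 and 4.54 CPM in OPCs and did not pass (adjusted p = 0.0569). The 14 endothelial markers summed to 53.1 to 99.3 CPM in SSC and 6.91 to 26.9 CPM in OPC libraries, with a median log2 fold change of 2.20. Cdh5 read at most 0.503 CPM in any of the 6 and went against that median (log2 fold change -1.36, not passing). Emcn had 349 counts over the SSC group and 3 over the OPC group (log2 fold change 6.41). Emcn did not pass in the main fit but passed with DESeq2 (adjusted p = 0.0341). Of the 14, Plvap and Erg were higher in SSCs, Plvap at 9.18, 10.3 and 4.9 CPM in SSCs and 1.37, 1.72 and 0.817 CPM in OPCs (log2 fold change 2.64 ± 0.59, adjusted p = 0.0108). Endothelial markers called higher numbered 1 to 2 (moving over 1.5-fold without SSC replicate 1, 2 or 3 or OPC replicate 2 or 3) on leaving out 1 library and 0 without replicate 3 of both. Mural markers called lower numbered 0 to 2 (moving over 1.5-fold without SSC replicate 1 or 3 or OPC replicate 1, 2 or 3) on leaving out 1 library and 1 without replicate 3 of both. The part of such cells in the differences above was not tested. Acta1 lost its call without SSC replicate 1 or 3 or OPC replicate 1, 2 or 3 (adjusted p up to 0.144). Myf5 lost its call without SSC replicate 1 or 3 (adjusted p up to 0.0689). Pax7 lost its call without SSC replicate 1 (adjusted p up to 0.064). Sox10 lost its call without SSC replicate 1 (adjusted p up to 0.0514). Des lost its call without SSC replicate 1 or OPC replicate 1 (adjusted p up to 0.0753). Des did not pass in a fit of the 6 WT libraries alone (adjusted p = 0.0624). Acta1, Myf5 and Plvap did not pass without replicate 3 of both (adjusted p up to 0.189). Rgs5 passed with DESeq2, with a filter of 10 counts in each library, in a fit of the 6 WT libraries alone and with the bias-adjusted test (adjusted p up to 0.0394).

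Leukocyte transcripts were most abundant in replicate 3 of both cell types, and erythroid transcripts were not. None of 25 leukocyte and none of 9 erythroid markers passed in either direction. S100a8, a granulocyte gene, read 95.2, 27.8 and 393 CPM in SSCs and 12.4, 2.6 and 1196 CPM in OPCs, and Tyrobp 8.81, 3.85 and 26.1 CPM in SSCs and 2.63, 1.1 and 91.2 CPM in OPCs, both highest in OPC replicate 3. Igkc, an antibody light chain gene (chosen after its values were seen), read 5.26, 1.29 and 1548 CPM in the SSC libraries and 1.77, 3.01 and 0.168 CPM in the OPC libraries. Igkc was thus high in SSC replicate 3 and low in OPC replicate 3. Hbb-bs, a beta-globin gene, read 394, 140.1 and 56 CPM in SSCs and 207, 262 and 36.5 CPM in OPCs, lowest in replicate 3 of both. Of 8 osteoclast markers none passed, and Acp5 read 20.1, 24 and 26.5 CPM in SSCs and 8.95, 15 and 48.2 CPM in OPCs.

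Several programmes gave few or no calls by number, beside 5.55% higher and 5.86% lower over all genes tested. Of 24 adipogenic genes, Zfp423, a factor of preadipocytes, was higher, at 51.4, 62.9 and 34.8 CPM in SSCs and 13.1, 16.3 and 16.1 CPM in OPCs (log2 fold change 1.71 ± 0.33, adjusted p = 0.00489), and Adipor1 lower (log2 fold change -0.89 ± 0.23, adjusted p = 0.0231). Pparg, the master factor of fat cells, read 4.37, 3.03 and 7.42 CPM in SSCs and 0, 0.958 and 0 CPM in OPCs, Cebpa 2.88, 4.19 and 4.03 CPM in SSCs and 6.49, 4.84 and 4.19 CPM in OPCs and Adipoq, the adiponectin gene, 8.22, 8.3 and 0.301 CPM in SSCs and 0.435, 2.65 and 0 CPM in OPCs, and none of the 3 passed. Lpl, lipoprotein lipase, read 143, 114 and 62.6 CPM in SSCs and 67.2, 21.9 and 22.9 CPM in OPCs and did not pass, although it did with the replicate block (adjusted p = 0.0313). Adipogenic genes called higher numbered 1 to 2 (moving over 1.5-fold without SSC replicate 3 or OPC replicate 1 or 2) on leaving out 1 library and 1 without replicate 3 of both (2 with the replicate block), and those called lower 0 to 1 (moving over 1.5-fold without SSC replicate 1, 2 or 3 or OPC replicate 2 or 3) on leaving out 1 library and 0 without replicate 3 of both. Of 42 genes of the Seurat S-phase list, Pcna was higher (log2 fold change 1.39 ± 0.32, adjusted p = 0.0126) and Mrpl36 lower (log2 fold change -1.29 ± 0.29, adjusted p = 0.0105). Mrpl36 is a mitochondrial ribosomal protein gene and is counted again among those below. Of 52 G2/M genes none passed, with 0 to 3 lower on leaving out 1 library. Ccnd1, cyclin D1, was lower, at 36.1, 31 and 11.4 CPM in OPCs and 12.9, 8.16 and 7.5 CPM in SSCs (log2 fold change -1.46 ± 0.44, adjusted p = 0.0481), and Cdkn1c, a cell cycle inhibitor gene, read 51.7, 103 and 23.7 CPM in OPCs and 23.7, 34.1 and 19.4 CPM in SSCs and did not pass. Of 24 immediate-early and stress genes, 3 were higher and none lower. Stress-list genes called higher numbered 2 to 4 on leaving out 1 library and 1 without replicate 3 of both. Fos, Jun and Egr1, which respond within minutes to cell handling, were abundant in all 6 libraries and did not pass, with Fos at 5307, 4959 and 4759.9 CPM in SSCs and 6647, 4414 and 2698 CPM in OPCs. Of 32 interferon-stimulated genes Stat2 alone was higher (log2 fold change 2.11 ± 0.51, adjusted p = 0.0161). Interferon-stimulated genes called higher numbered 0 to 3 (moving over 1.5-fold without OPC replicate 1, 2 or 3) on leaving out 1 library and 0 without replicate 3 of both (3 with the replicate block). Ccnd1 lost its call without SSC replicate 1, 2 or 3 or OPC replicate 1 or 2 (adjusted p up to 0.145). Adipor1 lost its call without SSC replicate 1, 2 or 3 or OPC replicate 2 or 3 (adjusted p up to 0.104). Pcna lost its call without OPC replicate 2 (adjusted p up to 0.0581). Mrpl36 lost its call without OPC replicate 3 (adjusted p up to 0.0557). Stat2 lost its call without OPC replicate 2 or 3 (adjusted p up to 0.054). Ccnd1 did not pass without a filter (adjusted p = 0.0735). Adipor1 and Ccnd1 did not pass in a fit of the 6 WT libraries alone (adjusted p up to 0.0917). Ccnd1 did not pass without genes sharing over 10% of words (adjusted p = 0.0528). Adipor1, Ccnd1, Mrpl36 and Stat2 did not pass without replicate 3 of both (adjusted p up to 0.153). Pparg passed with the bias-adjusted test and without OPC replicate 2 (adjusted p up to 0.0401). Lpl passed without OPC replicate 1 (adjusted p = 0.04996). Cdkn1c passed with DESeq2, with a filter of 10 counts in each library, without OPC replicate 3 and without replicate 3 of both (adjusted p up to 0.0437).

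Genes of the general cell machinery also differed, and here the direction moved with how much sequence a gene shares with others. Of 82 cytosolic ribosomal protein genes, 47 were higher in SSCs and 9 lower (median 1.53), with 44 to 47 higher and 4 to 9 (moving over 1.5-fold without SSC replicate 1 or 2) lower on leaving out 1 library and 45 and 6 without replicate 3 of both. Rpl19 read 41.2, 37.1 and 38.7 CPM in SSCs and 2.43, 2.03 and 2.89 CPM in OPCs (log2 fold change 3.99 ± 0.19, adjusted p = 8.99e-08), and Rpl8 246, 259 and 295 CPM in OPCs and 86.8, 94.9 and 90.2 CPM in SSCs (log2 fold change -1.56 ± 0.16, adjusted p = 4.31e-05). Rpl19 shares 57.4% of the 50-base words of its transcripts with genes elsewhere in the genome, such as processed pseudogenes, and Rpl8 4.80%. Of the 82 genes, 19 share at most 10%, and in a fit without the genes that share more, 4 of these 19 were higher and 7 lower (median -0.29). Actg1, gamma-actin (36.3% shared), read 212, 214 and 343 CPM in SSCs and 2.83, 1.51 and 1.93 CPM in OPCs (log2 fold change 6.94 ± 0.52, adjusted p = 2.92e-06), and Gapdh (24.7% shared) 291, 273 and 313 CPM in SSCs and 36.1, 31 and 33.7 CPM in OPCs (log2 fold change 3.12 ± 0.18, adjusted p = 3.54e-07). In OPC libraries these RNAs, which nearly all cells carry in quantity, were thus counted at low levels. Hspa8, a constitutive chaperone (36.2% shared), read 804, 783 and 990.0 CPM in SSCs and 251, 223 and 208 CPM in OPCs (log2 fold change 1.92 ± 0.33, adjusted p = 0.00232).

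The same held over all protein-coding genes. Of 9404 that share no 50-base word, 511 were higher and 720 lower. Of 942 that share over 10%, 194 were higher (20.6%) and 19 lower (2.02%), with a median log2 fold change of 0.78. Reads aligned to several places, which were not counted on any gene, were the larger share in OPC libraries, as given above. Read length by library is not given in the sources used here, and the part of alignment in these differences was not tested. Without the genes that share over 10%, 860 genes were higher and 966 lower, and 1803 of the 2308 calls stayed with the same direction. The counts of the lists for bone matrix (24 of 33 lower), Sca-1-positive fibroblasts (22 of 37 higher), collagen folding (16 of 31 lower) and the IGF axis (5 of 10 higher) changed little in that fit.

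**Figure D4:**
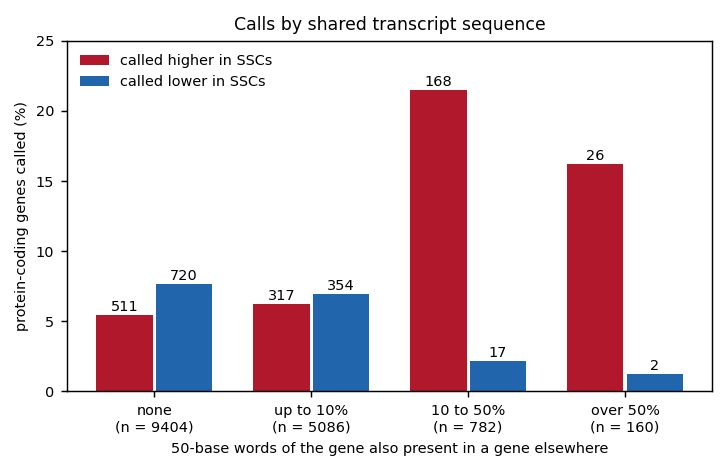
Share of protein-coding genes called higher (red) and lower (blue) in WT SSCs, in 4 classes of genes by the percent of their 50-base transcript words that also occur in a gene elsewhere; bars are percent of the genes in a class and numbers give gene counts. Higher calls make up 5.43% of the genes that share no word and 21.5% of those that share 10 to 50%.

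Mitochondrial and proteasome genes were lower in WT SSCs in part, and few or none of them were lower in mutant SSCs. Of 74 mitochondrial ribosomal protein genes, 20 were lower and none higher (median -0.54), with 9 to 23 (moving over 1.5-fold without SSC replicate 1, 2 or 3 or OPC replicate 2 or 3) lower on leaving out 1 library and 3 without replicate 3 of both. Of 78 nuclear subunits of the respiratory chain and ATP synthase, 22 were lower and 6 higher, with 14 to 22 (moving over 1.5-fold without SSC replicate 3) lower on leaving out 1 library and 9 without replicate 3 of both. Atp5g2, a subunit of ATP synthase (36.7% shared), was among the higher, at 5.39, 6.19 and 5.32 CPM in SSCs and 0.258, 0.374 and 0.314 CPM in OPCs (log2 fold change 4.15 ± 0.43, adjusted p = 4.24e-05). Of 37 proteasome subunits, 14 were lower and 2 higher, with 4 to 18 (moving over 1.5-fold without SSC replicate 1, 2 or 3 or OPC replicate 2 or 3) lower on leaving out 1 library and 1 without replicate 3 of both. Psmc3 read 208, 211 and 239 CPM in OPCs and 142, 121 and 122 CPM in SSCs (log2 fold change -0.78 ± 0.15, adjusted p = 0.00409). In the fit without genes that share over 10% of their words, 16 of 67 mitochondrial ribosomal, 21 of 68 respiratory and 11 of 30 proteasome genes were lower and none was higher. Of 12 mitochondrially encoded protein genes none passed. Of 20 glycolysis genes, 3 were higher (Gapdh, Pgk1 and Pgam1) and 3 lower (Pfkl, Tpi1 and Ldhb), and Pfkl, phosphofructokinase, read 119.6, 193 and 123 CPM in OPCs and 62.9, 55.5 and 71.1 CPM in SSCs (log2 fold change -1.20 ± 0.28, adjusted p = 0.0127). Glycolysis genes called higher numbered 3 to 4 on leaving out 1 library and 3 without replicate 3 of both, and those called lower 1 to 3 (moving over 1.5-fold without SSC replicate 1 or 2 or OPC replicate 2) on leaving out 1 library and 2 without replicate 3 of both. Ldha and Slc2a1 did not pass. Without the shared-sequence genes, none of 14 was higher and 1 lower. Pfkl lost its call without SSC replicate 2 or OPC replicate 2 (adjusted p up to 0.0796). Psmc3 did not pass without replicate 3 of both (adjusted p = 0.059).

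The same comparison in the 11 mutant libraries, which share no library with the WT contrast, gave 2521 genes called in +/1013 mice (1303 higher and 1218 lower) and 2642 in 1013/1013 mice (1404 and 1238), in the same fit. Of the WT calls, 61.1% of those higher and 51.2% of those lower were called the same way in +/1013 mice, and 59.0% and 43.8% in 1013/1013 mice. These make up 52.6% and 49.8% of the +/1013 calls and 47.2% and 41.9% of the 1013/1013 calls. Opposite calls were made for 3 and 6 genes. Of the 36 bone matrix genes the calls were 0 higher and 28 lower in +/1013 mice and 0 higher and 23 lower in 1013/1013 mice, and of the 38 fibroblast genes 25 higher and 0 lower in +/1013 mice and 26 higher and 0 lower in 1013/1013 mice. Of 24 chondrogenic genes they were 0 higher and 15 lower in +/1013 mice and 0 higher and 15 lower in 1013/1013 mice. Ly6a differed by 8.62 in +/1013 and 7.45 in 1013/1013 mice on the log2 scale, Col1a1 by -7.01 in +/1013 and -6.30 in 1013/1013 mice, Bglap by -6.22 in +/1013 and -4.70 in 1013/1013 mice and Clec3b by 6.65 in +/1013 and 7.67 in 1013/1013 mice. Col2a1 differed by -8.94 in +/1013 and -10.81 in 1013/1013 mice.

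**Figure D5:**
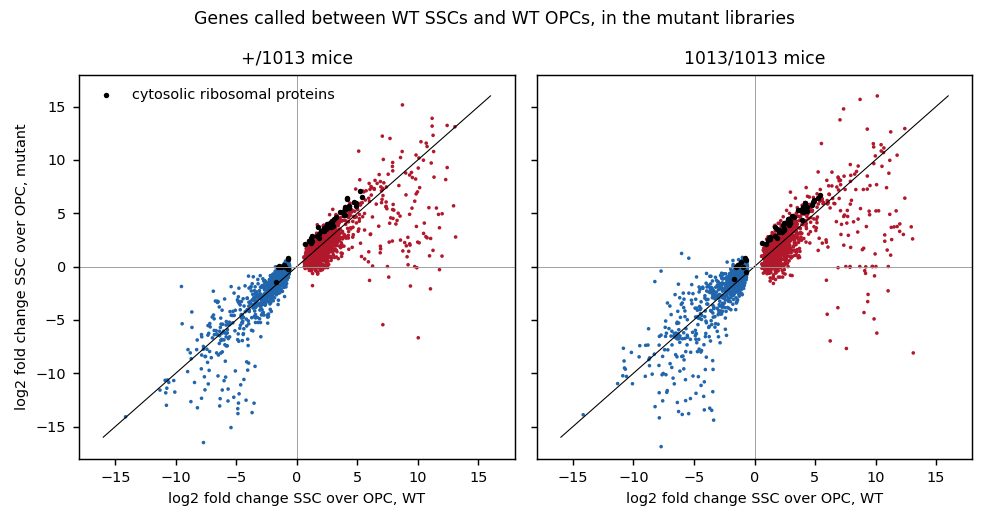
The 2308 genes called between WT SSCs and WT OPCs, with the WT log2 fold change of SSC over OPC on the horizontal axis and that in +/1013 (left) and 1013/1013 (right) mice on the vertical axis; red and blue give the WT call, black points are called cytosolic ribosomal protein genes, and the line marks equality. Signs were the same for 2197 of the 2308 genes in +/1013 and 2108 in 1013/1013 mice, and the black points lie above the line.

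A test of the difference between genotypes itself found few genes. The SSC minus OPC difference differed between +/1013 and WT mice for 17 genes (0.084% of those tested) and between 1013/1013 and WT mice for 31 (0.153%), with 2153 and 3037 genes at an unadjusted p below 0.05. With the replicate number as a block these were 0 and 19, with 1786 and 2626 at an unadjusted p below 0.05. Cytosolic ribosomal protein genes were 13 of the 17 and 18 of the 31, all with a larger SSC minus OPC difference in the mutant libraries. Of the protein-coding genes among them, 9 of the 17 and 14 of the 31 share over 10% of their 50-base words with genes elsewhere. Ribosomal protein genes called higher in SSCs were 71 of 82 in +/1013 and 70 of 82 in 1013/1013 mice. Respiratory chain and ATP synthase genes were 6 higher and 22 lower in WT mice. They were 28 higher and 0 lower in +/1013 and 35 higher and 0 lower in 1013/1013 mice. Of these 78 genes only Cox7a2l, which was not called in WT mice, passed the test of the difference, in 1013/1013 mice. Cox4i1, a respiratory chain subunit that the list does not hold, was called lower in WT mice and also passed there. Its log2 fold change was -0.94 in WT and 0.80 in 1013/1013 mice (difference 1.74 ± 0.30, adjusted p = 0.0361). No gene of the bone matrix or fibroblast lists passed it in either genotype. WT and mutant SSC libraries also differed, without overlap, in library measures. Reads outside genes were 3.68 to 4.15% in WT and up to 2.69% in mutant SSC libraries. Genes with a count numbered 21449 to 22599 in WT and 15748 to 19227 in mutant SSC libraries. OPC libraries of WT and mutant mice overlapped in these measures. Effects of library making and of genotype cannot be told apart here, and their parts were not tested.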

How the data were processed

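RNA of sorted cells was amplified with 12 PCR cycles, and the deposited values are whole-number read counts per gene: per the labels and the study's methods, the authors removed reads under 50 bp, used STAR to align the rest to mm10, and assigned them to genes with HTSeq (versions, strand setting and annotation release are not given in the sources used here). Reads outside genes, ambiguous reads and reads aligned to several places stayed out of library sizes.

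All 17 libraries entered 1 fit of 6 group means in edgeR 4.0.16 (R 4.3.3), after filterByExpr and TMM scaling, with 11 residual degrees of freedom. The contrast was WT SSC minus WT OPC, and SE is the fold change divided by the root of the F statistic. Alternatives were DESeq2 1.42.0, other scalings and filters, leaving out libraries and leaving out genes that share over 10% of the 50-base words of their annotated transcripts with a gene at another place. The script was tested on simulated counts. List members and words were chosen with earlier results of these data known, so no list was tested as a set. S and G2/M lists are those of Seurat 5.3.0, and positions are from GENCODE M21. Named are fixed anchor genes of each list, the 10 largest rises and falls, and the gene with the smallest adjusted p in each direction of each list. The other genes named, which include all members of short counts, Bglap2, Bglap3, Gsn, Igkc, Pthlh, Cox7a2l and Cox4i1, were chosen after their values were seen. Some genes that the rule names are not reported here. For 55154 of 55335 genes the identifier matched the annotation. Same-numbered WT libraries deviated together over genes (r of 0.13, 0.25 and 0.40), and SSC replicate 2 with OPC replicate 1 (0.25) and SSC replicate 1 with OPC replicate 2 (0.14) did as well, so that only replicate 3 was specific. The labels give replicate numbers but name no pairs. Since each same-numbered r was above 0.1, a fit with the replicate number as an additive block is given where it changed a call. That block covers all 17 libraries, so that it also ties WT to mutant libraries of the same number. Replicates are pools of different mice by the methods, and intervals or floors of counts cover counting error only.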

Additional observations from a re-analysis of the deposited data

Results flagged for a closer look

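The genes Rpl8, Rpl19, Adamts10 and Serpina3c, all named above, had an SSC minus OPC difference that itself differed between genotypes, by the interaction term of the edgeR fit with adjusted p over all genes. For Rpl8 the difference was 1.47 ± 0.22 (SE) larger in +/1013 than in WT mice on the log2 scale (adjusted p = 0.0449) and 1.55 ± 0.23 larger in 1013/1013 mice (adjusted p = 0.0230), with means of 90.6 CPM in WT SSCs and 267 CPM in WT OPCs against 226 and 239.8 CPM in +/1013 mice. For Rpl19 it was 1.61 ± 0.26 larger in 1013/1013 mice (adjusted p = 0.0297), with 39.0 and 2.45 CPM in WT against 99.1 and 2.04 CPM. For Adamts10 it was lower in +/1013 mice, at -3.08 ± 0.46 (adjusted p = 0.0449), with 99.4 and 40.6 CPM in WT against 12.8 and 44.4 CPM. For Serpina3c it was -7.05 ± 1.01 in +/1013 (adjusted p = 0.0458) and -8.01 ± 1.05 in 1013/1013 mice (adjusted p = 0.0202). The WT OPC libraries held no Serpina3c count, so that the size of these last values depends on the prior count of the fit, and SSC means were 8.46 CPM in WT, 33.0 CPM in +/1013 and 34.1 CPM in 1013/1013 mice. With the replicate block no gene passed in +/1013 mice, so the +/1013 calls of these genes were lost there. The differences in library measures between WT and mutant SSC libraries, given above, apply to these genes too.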

How the results depend on the processing

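Across the 17 planned settings and 2 chosen after seeing the data, no WT call was made with the opposite sign. With DESeq2, 1893 genes were higher and 1940 lower, and the genotype differences were 432 (+/1013) and 1150 (1013/1013). The bias-adjusted edgeR test gave 1715 higher genes. On leaving out 1 library, 652 to 1141 genes were higher and 669 to 1122 lower, both lowest without OPC replicate 2 and highest without OPC replicate 1, and genotype differences were 0 to 13 and 0 to 49. Without replicate 3 of both WT groups, 531 were higher, 396 lower and 0 differed by genotype in either (1195 and 2006 at an unadjusted p below 0.05). Differences of +/1013 from WT were 0 with DESeq2 size factors, upper-quartile scaling, no filter, thinning to the smallest library, the bias-adjusted test, the replicate block and without genes sharing over 10% of words (2135, 2248, 2326, 1985, 2052, 1786 and 1878 at an unadjusted p below 0.05). Those of 1013/1013 were 5 with no filter, 59 with at least 10 counts in every library, 19 with the replicate block and 8 without genes sharing over 10% of words. The cause of these moves was not tested. With the replicate block 1020 genes were higher and 1022 lower. The replicate block changed the calls of Col2a1, Acan, Hes1, Slc20a1, Acta1, Rspo2, Lpl and Cd34, and of no other gene named by the rule.

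Signs turned only for genes that had not passed, in log2 fold change. With the replicate block they were Acp5 0.31, Dcstamp -1.55, Alas2 0.38 and Egr1 0.060. Without replicate 3 of both they were Acp5 0.88, Fos -0.11, Dcstamp -7.50, Itgav -0.16, Tyrobp 1.76, Cxcr4 -3.62 and S100a8 3.03. On leaving out 1 library, the ranges include both signs for these genes. They were Acp5 -0.42 to 0.98, Alas2 -1.60 to 0.38, Bmp4 -0.0161 to 0.41, Cxcr4 -3.36 to 1.23, Dcstamp -8.65 to 3.28, Egr1 -0.42 to 0.56, Fmod -0.023 to 0.45 and Fos -0.13 to 0.50. Others were Hbb-bs -0.78 to 0.71, Itgav -0.0731 to 0.51, Jun -0.0153 to 0.74, Ptprc -2.10 to 4.16, S100a8 -2.72 to 4.53, Tnfrsf11b -0.54 to 0.43, Tnmd -0.66 to 0.10 and Tyrobp -2.32 to 2.80. Over the named genes, 3025 values kept their side of the threshold, 37 passed newly, 188 no longer passed and 31 turned sign. Depth limited genes near the floor of 3 counts.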
